A study of Homo sapiens with 6 samples.

Results

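The 53 genes described here belong to the interferon response and the MHC class I pathway, and were taken by gene symbol from a table of 61859 genes. All 53 symbols were found, each on a single row, and 50 of them entered the test, which took only genes whose normalized count averaged 10 or more. By role they comprised 7 transcription regulators, 7 genes of antigen presentation, and 39 antiviral effectors and RNA sensors. RNA was sequenced from OSC19SSZR, a sulfasalazine-resistant human cell line derived from oral squamous cell carcinoma. One group received control siRNA (n = 3) and the other siRNA directed at the forkhead transcription factor FOXA1 (n = 3), and both were harvested 48 h later. All 6 samples therefore shared the resistant line, the lipid transfection reagent and the presence of an siRNA, and what transfection itself does was not measured. Nothing in the labels says that replicates came from separate cultures, and p-values therefore reflect the variation among these 6 samples alone, part or all of which could be technical. In bulk RNA of this kind, fewer cells of a type and less RNA per cell cannot be told apart.

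Type I and type III interferons bind receptors that signal through the kinases JAK1 and TYK2 to STAT proteins, STAT2 among them. STAT2 and IRF9 are parts of the complex ISGF3, which binds the interferon-stimulated response element (ISRE) in promoters of genes that block viral entry, translation, replication and release. Interferon gamma acts at the gamma-activated site (GAS) and, with NLRC5 and IRF1, raises the genes that load peptides onto MHC class I. Many epithelial cells keep a low tonic level of this programme without infection.

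Many of the members shared a sequence feature. The choice by name did not read promoters, but genes induced through ISGF3 carry the ISRE, so an excess of it was built into the list. RefSeq promoters (GRCh38.p14, from 250 bases before to 50 bases after the gene start) were matched for 43 of the 53 members, all but IRF7, NLRC5, HLA-E, IFIT2, OAS2, OASL, MX2, IFITM2, USP18 and DHX58. An ISRE core, the letters GAAA repeated after a gap of 2 bases and searched on both strands, stood in 25 of the 43 (58.1%), against 3.65% of all 27305 promoters in the table. They stood in 9 of 13 promoters of members that fell, in 2 of 3 of members that rose and in 13 of 25 of members that did not pass the test, and in 0 of 5 promoters of the transcription regulators. The windows below show the element, in capitals, in the antiviral gene that fell most (BST2), in 3 other members that fell (LGALS3BP, ISG15, TAPBP), in both matched carriers that rose (TAP2, DTX3L) and in B2M, which did not pass. Each is written 5′ to 3′ on the strand of the gene.
BST2: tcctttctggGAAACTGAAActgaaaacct
LGALS3BP: gtggtttctgGAAATCGAAAgtagactctt
ISG15: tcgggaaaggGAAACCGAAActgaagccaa
TAPBP: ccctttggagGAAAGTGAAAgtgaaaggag
TAP2: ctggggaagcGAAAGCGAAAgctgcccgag
DTX3L: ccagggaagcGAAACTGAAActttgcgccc
B2M: ctaagaaaagGAAACTGAAAacgggaaagt
These windows lie at chr19:17405741-17405770 (BST2, minus strand), chr17:78979962-78979991 (LGALS3BP, minus), chr1:1013380-1013409 (ISG15, plus), chr6:33314079-33314108 (TAPBP, minus), chr6:32838778-32838807 (TAP2, minus), chr3:122564322-122564351 (DTX3L, plus) and chr15:44711369-44711398 (B2M, plus). The element began at position -130 relative to the RefSeq gene start in BST2, -107 in ISG15, -58 in LGALS3BP and in TAP2, and -6 in DTX3L. The GAS letters TTCNNNGAA stood in 9 of the 43 promoters (20.9%, against 7.88% of all), IRF1, IRF9 and BST2 among them. The forkhead letters TGTTTAC or TATTTAC stood in 4 of the 43 (9.3%, against 6.05%), those of CMPK2, SAMD9L, IFIT3 and IFI27. Over the 11346 promoters of tested genes the shares were 2.68% for the ISRE, 6.29% for GAS and 3.88% for the forkhead letters. Each motif was searched on its own, on both strands, so matches may share bases, and a match describes letters in the window, not a bound site.

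**Figure D1:**
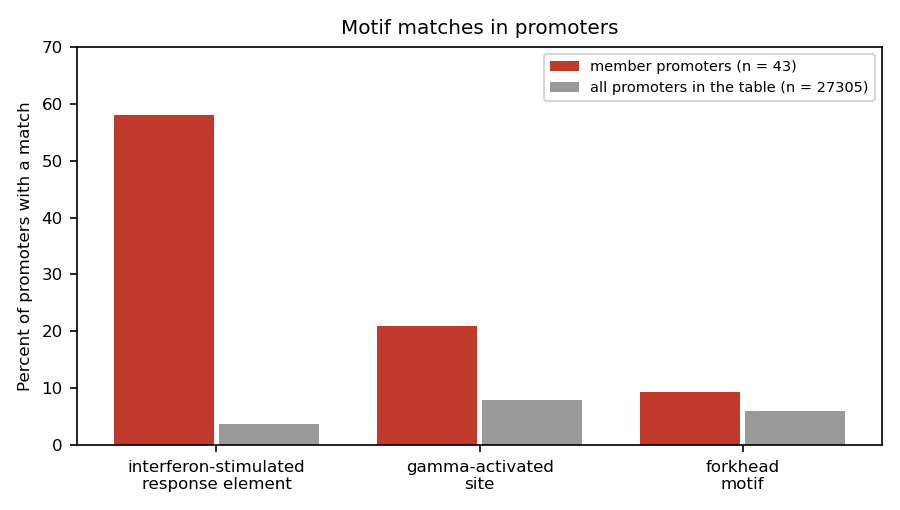
Percent of promoters (y axis) with at least 1 match to each of 3 motifs (x axis), for the 43 matched members (red) and all 27305 promoters of the table (grey). The ISRE stood in 58.1% of member promoters and 3.65% of all, while the forkhead motif stood in 9.3% and 6.05%.

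Recovered reads ranged from 16510125 to 25732569 per library. FOXA1 itself (ENSG00000129514) stood at 1477, 1378 and 1459 normalized counts with control siRNA and at 247, 192 and 189 with FOXA1 siRNA. That is 1438 ± 52.8 against 209 ± 32.5 (SD, n = 3 each), a log2 fold change of -2.79 ± 0.09 (SE, limma adjusted p = 3.32e-18). An exact two-sided permutation test gave p = 0.1, the smallest that 3 against 3 samples allow. Squamous markers were abundant, with a sum over 10 genes of 66468 to 69465 in controls and 74262 to 76147 after knockdown. Of these 10, 5 rose and 2 fell (KRT5, -0.18 ± 0.04, and TP63, -0.40 ± 0.05), beside 26.8% and 25% of all tested genes. KRT14, a defining basal keratin, was only at 16.1 to 77.2. KRT6A was at 50.4, 38.3 and 802 in controls, with replicate 3 far apart, and at 178, 72.1 and 64 after knockdown. Leukocyte markers summed to 125 to 139 and 106 to 120 over 10 genes, most of it CD68, with HLA-DRA at 0 in every library. Fibroblast markers summed to 148 to 167 and 92.5 to 145 over 8 genes, most of it COL1A1, with DCN and LUM at 0. Endothelial markers summed to 542 to 573 and 279 to 303 over 5 genes, nearly all of it CDH5, with KDR at 0.

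After FOXA1 knockdown, the share of interferon and MHC class I genes that fell was near that of all genes, while the share that rose was smaller. Of the 50 tested members, 16 fell and 3 rose (limma, adjusted p of 0.05 over all 18460 tested genes). Among all tested genes 25% fell and 26.8% rose, beside 32% and 6% of the tested members, and 51.8% passed in either direction. The median log2 fold change of the tested members was -0.21, against 0.0039 over all tested genes. Most changes were modest. Only BST2 fell by 2-fold or more, which 5.33% of all tested genes did, and no member rose that much, which 1.65% of all did. For 17 tested members all knockdown values were below all controls and for 2 they were above. Over all tested genes 57.6% had groups that did not overlap, 28.1% lower and 29.5% higher. Without FOXA1 siRNA replicate 2, 13 members fell and 6 rose, and the median was -0.10.

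**Figure D2:**
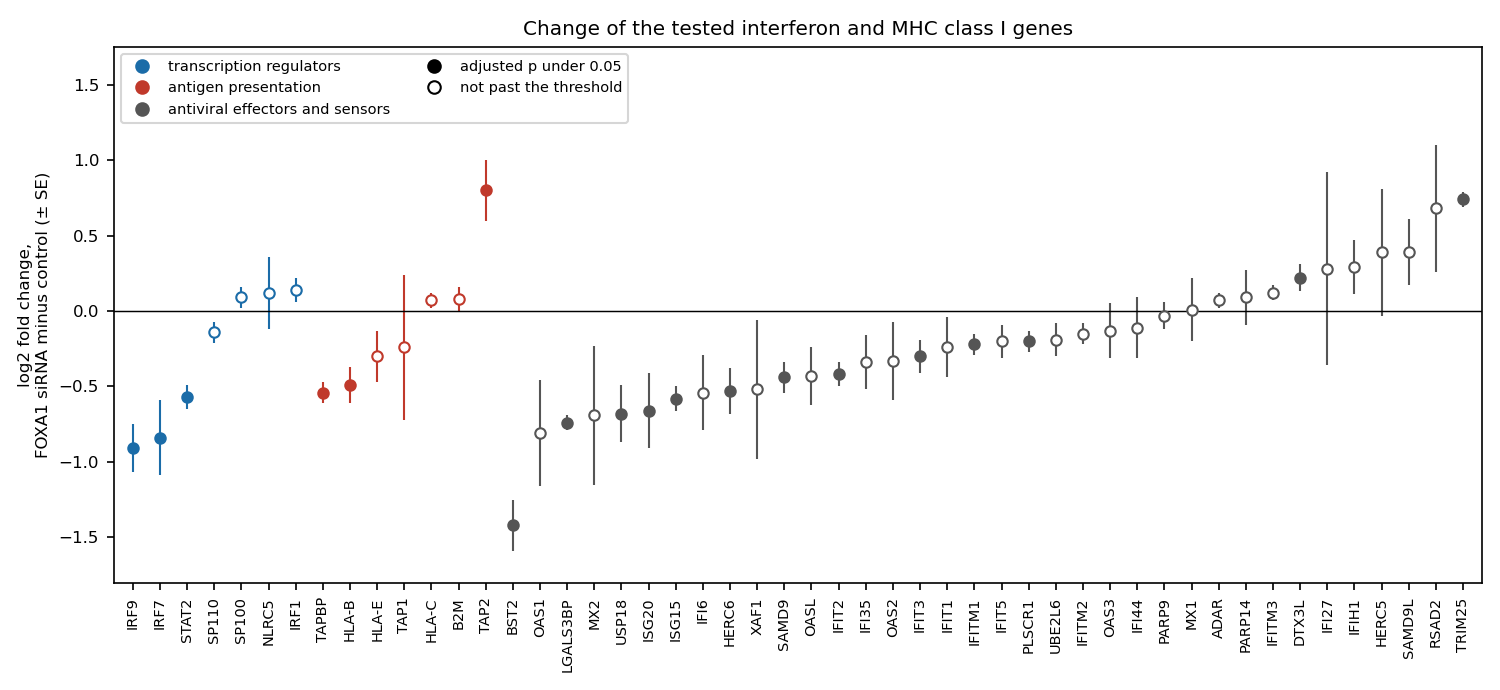
The log2 fold change (y axis, FOXA1 siRNA minus control siRNA, bars are ± SE from limma, n = 3 each) of the 50 tested members, ordered within 3 role groups marked by colour. Filled points passed an adjusted p of 0.05: 16 lie below 0 and 3 (TAP2, DTX3L and TRIM25) above it.

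Among the transcription regulators, both members that are subunits of ISGF3 fell. IRF9, its DNA-binding subunit (GRCh38 chromosome 14, 24161053 to 24166565, plus strand), was at 888, 936 and 1061 normalized counts with control siRNA and at 594, 400 and 555 with FOXA1 siRNA. Every knockdown library lay below every control, and the log2 fold change was -0.91 ± 0.16 (limma adjusted p = 0.00356). STAT2, its transactivating subunit (chromosome 12, 56341597 to 56360155, minus strand), was at 628, 673 and 718 in controls and at 477, 428 and 451 after knockdown. The groups again did not overlap (-0.57 ± 0.08, limma adjusted p = 3.7e-07).

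IRF7, which amplifies interferon alpha production, was at 105, 137 and 167 in controls and at 105, 76.6 and 51 after knockdown. It fell (-0.84 ± 0.25, limma adjusted p = 0.0153), although FOXA1 siRNA replicate 1 stood at the level of control replicate 1. The call was lost under 4 of 16 alternatives (limma adjusted p of 2.32e-06 to 0.0665 over them), without control siRNA replicate 2 (0.0621) or FOXA1 siRNA replicate 2 (0.0652) and with the replicate block (0.0543) among them. The lowest of these p came without a filter on low values. The remaining regulators did not pass. IRF1, a regulator of interferon gamma targets, stood at 516, 519 and 549 against 626, 622 and 509. It passed as higher without FOXA1 siRNA replicate 3 (log2 fold change 0.24 against 0.14, limma adjusted p = 0.00913, within a range of 0.00913 to 0.671). NLRC5, the transactivator of MHC class I genes, was weakly expressed at 28.5, 55.5 and 35.6 against 45, 44 and 36.8. For the nuclear body protein SP100 the values were 986, 839 and 905 against 947, 890 and 1069, and for its relative SP110 they were 746, 722 and 828 against 742, 635 and 705. The ranges of the groups overlapped for all 4 of these genes. SP110 passed as lower with equal library totals (limma adjusted p = 0.00921) and with quantile normalization (0.0457), within a range of 0.00921 to 0.432.

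**Figure D3:**
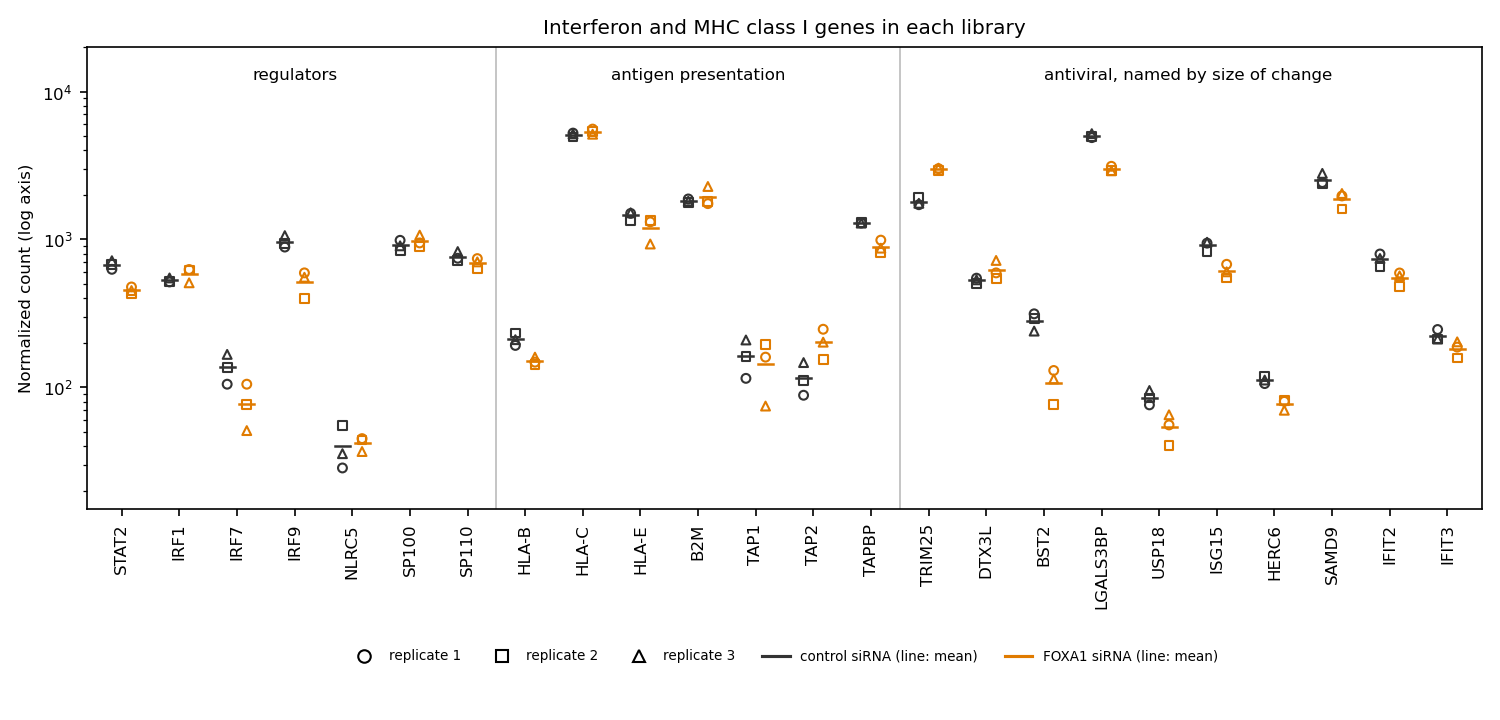
Normalized counts on a log axis (y) of the regulators, the antigen presentation genes and 10 antiviral members (x) in each library, with dark symbols for control siRNA, orange for FOXA1 siRNA, marker shapes for the replicate number and lines for the mean of 3. The groups are apart for STAT2, IRF9, TAPBP, TRIM25, BST2 and LGALS3BP and overlap for HLA-C, B2M, TAP1 and SP100.

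In antigen presentation the genes went different ways, with 2 of 7 lower, 1 higher and 4 that did not pass. Over all tested genes 25% were lower and 26.8% higher. TAPBP encodes tapasin, which bridges class I molecules to the peptide transporter (chromosome 6, 33299694 to 33314387, minus strand). Its normalized counts were 1291, 1310 and 1289 in controls and 989, 815 and 873 after knockdown, well apart (-0.54 ± 0.07, limma adjusted p = 8.91e-08). HLA-B, a class I heavy chain, was at 192, 233 and 210 against 148, 142 and 160, also without overlap (-0.49 ± 0.12, limma adjusted p = 7.73e-04). TAP2, a subunit of the peptide transporter (chromosome 6, 32821833 to 32838780, minus strand), rose from 88.4, 111 and 147 to 247, 155 and 202. The lowest knockdown value was just above the highest control value (0.80 ± 0.20, limma adjusted p = 0.00453). Its partner TAP1 was at 115, 161 and 209 against 160, 196 and 74.7, so that its spread within a group exceeded the difference between groups (-0.24 ± 0.48, limma adjusted p = 0.715).

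HLA-C had the highest level of the class I heavy chains given here, with 5235, 4922 and 5168 in controls and 5571, 5384 and 5144 after knockdown. B2M, the invariant light chain, was at 1877, 1780 and 1817 against 1746, 1808 and 2280, with only FOXA1 siRNA replicate 3 above the controls. HLA-E, a ligand of the natural killer cell receptor NKG2A, was at 1499, 1344 and 1514 against 1314, 1345 and 931, with the same library apart in the other direction. None of these 3 passed (limma adjusted p of 0.218, 0.448 and 0.205). Per kilobase of annotated exon, HLA-C averaged 2089 normalized counts over the 6 libraries, HLA-E 445, B2M 310 and HLA-B 59.3. Exon length here joins the exons of all annotated transcripts of a gene, 6079 bases for B2M and 2975 for HLA-E. It can exceed the length of the transcript expressed, so B2M may stand too low in this order. Class I genes are polymorphic and alike, and how reads of alleles unlike the reference were placed was not tested, so the order among these genes is uncertain.

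The antiviral effectors and sensors held the largest fall and one of the largest rises of the whole set. Of 36 tested genes, 11 were lower and 2 higher, beside 25% and 26.8% of all tested genes. BST2 encodes tetherin, which holds budding virions on the cell surface (chromosome 19, 17402939 to 17405648, minus strand). It was at 314, 293 and 240 normalized counts with control siRNA and at 130, 76.6 and 114 with FOXA1 siRNA, which left 37.9% of the control mean (-1.42 ± 0.17, limma adjusted p = 3.83e-06). LGALS3BP, a secreted galectin-binding glycoprotein, was at 4879, 4942 and 5190 against 3122, 2928 and 2912. Its libraries were tight within each group and far apart between them (-0.74 ± 0.05, limma adjusted p = 5.13e-13). SAMD9, a restriction factor of poxviruses, fell from 2424, 2368 and 2796 to 1968, 1606 and 2044 (-0.44 ± 0.10, limma adjusted p = 0.00565). Its neighbour and paralog SAMD9L was at 57.1, 55.5 and 63.8 against 92.2, 49.3 and 102, a difference in the other direction that did not pass (0.39 ± 0.22, limma adjusted p = 0.136). Only FOXA1 siRNA replicate 2 stood within or below the controls there, and without it SAMD9L passed as higher (0.72, limma adjusted p = 0.00329), as it did with quantile normalization (0.56, 0.0348), within a range of 0.00329 to 0.499.

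In the ISG15 pathway, 3 of 5 genes fell and none rose, beside 25% and 26.8% of all tested genes. ISG15 is a ubiquitin-like protein attached to other proteins, and was at 944, 834 and 957 against 679, 548 and 604, without overlap (-0.58 ± 0.08, limma adjusted p = 5.11e-07). USP18, which removes ISG15 and dampens the interferon receptor, was at 76.1, 84.7 and 95.2 against 55.7, 40.2 and 65.2 (-0.68 ± 0.19, limma adjusted p = 0.00411). HERC6, a HECT-type ligase, was at 106, 118 and 112 against 80.4, 81.2 and 70 (-0.53 ± 0.15, limma adjusted p = 0.00444). For these 3 genes every knockdown library was below every control. UBE2L6, the conjugating enzyme, went from a mean of 254 to 224 and did not pass. HERC5, the main ISG15 ligase and the neighbour of HERC6 on chromosome 4, had only 36 reads in controls and 47 after knockdown, too few for a firm comparison.

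Of 8 genes of the IFIT and OAS families, 2 fell and none rose, beside 25% and 26.8% of all tested genes. All 8 log2 fold changes were negative over the 6 libraries, but without FOXA1 siRNA replicate 2 that of OAS3 was 0.08, that of IFIT1 -0.02 and that of OAS2 -0.03. IFIT2, a member of a family that binds viral RNA, fell from 797, 660 and 743 to 593, 483 and 567 (-0.42 ± 0.08, limma adjusted p = 1.36e-04). IFIT3, its neighbour on chromosome 10, was at 246, 212 and 212 against 187, 158 and 203, a narrow gap (-0.30 ± 0.11, limma adjusted p = 0.0328). That call was lost under 6 of 16 alternatives, without control siRNA replicate 1 (adjusted p = 0.162) or FOXA1 siRNA replicate 2 (0.194) among them, within a range of 0.00579 to 0.194. IFIT1 and IFIT5 lie in the same cluster and did not pass (-0.24 and -0.20). OAS1 makes a second messenger on binding double-stranded RNA, and was at 167, 147 and 192 against 132, 56.2 and 117. The groups did not overlap, yet the spread among the knockdown libraries kept the difference from passing (-0.81 ± 0.35, limma adjusted p = 0.113). OAS1 passed under 4 of 16 alternatives (limma adjusted p of 2.56e-06 to 0.255 over them). The lowest came without a filter on low values, where p of some genes was far smaller at the same fold change. The others were the replicate block (4.22e-04) and leaving out FOXA1 siRNA replicate 1 (0.0242) or 2 (0.0168). It also passed as lower in the authors' deposited values (Wald test, adjusted p = 0.00744). The neighbouring OAS3 and OAS2, and OASL, did not pass (-0.13, -0.33 and -0.43). OASL passed as lower under 7 of 16 alternatives (limma adjusted p of 0.0218 to 0.394 over them), with the replicate block (0.0274) and without control siRNA replicate 2 (0.0218) or FOXA1 siRNA replicate 1 (0.0259) or 3 (0.0263) among them, whereas without FOXA1 siRNA replicate 2 it was at -0.19.

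Of 7 genes that restrict entry and release or bind viral capsids, BST2, IFITM1 and PLSCR1 fell and none rose. Over all tested genes 25% fell and 26.8% rose. IFITM1, a membrane protein that blocks virus fusion, was at 1140, 1177 and 1176 against 1049, 871 and 1094 (1164 ± 20.9 and 1005 ± 118, SD, n = 3; -0.22 ± 0.07, limma adjusted p = 0.0117). The scramblase PLSCR1 went from 837 ± 49.5 to 730 ± 19.9 (-0.20 ± 0.07, limma adjusted p = 0.0159). Neither passed without FOXA1 siRNA replicate 2, where IFITM1 was at -0.12 and PLSCR1 at -0.18 (limma adjusted p = 0.139 and 0.056). The call of PLSCR1 was also lost without control siRNA replicate 1 (0.106). Their p ranged from 8.4e-04 to 0.139 and from 6.22e-04 to 0.106 over 16 alternatives. IFITM3, the most abundant member per kilobase of exon at 2609, was at 3471, 3261 and 3356 against 3425, 3561 and 4031 and did not pass (0.12 ± 0.05, limma adjusted p = 0.0603). Neither IFITM2 nor the dynamin-like GTPase genes MX1 and MX2 passed, and MX1 was at 65.6 ± 1.86 against 68.8 ± 21.7. IFITM2 passed as lower under 4 of 16 alternatives, equal library totals (limma adjusted p = 0.00354) and leaving out FOXA1 siRNA replicate 3 (0.0103) among them. Its adjusted p ranged from 0.00354 to 0.361.

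Of 3 tested members of RNA sensing and editing, 1 rose and none fell, beside 26.8% and 25% of all tested genes. DDX58, the RIG-I gene outside the member list, fell (-0.45 ± 0.14, limma adjusted p = 0.0119), with limits given below. TRIM25, a ubiquitin ligase that assists the sensor RIG-I (chromosome 17, 56836387 to 56914080, minus strand), rose from 1717, 1909 and 1755 to 3011, 2922 and 3034. The libraries of each group lay close together, and the log2 fold change was 0.74 ± 0.05 (limma adjusted p = 2.84e-12). IFIH1, the sensor MDA5, was at 128, 93.8 and 95.2 against 133, 95.6 and 165, and the RNA-editing enzyme ADAR at 4412, 4663 and 4636 against 4973, 4517 and 4919. Neither passed (limma adjusted p of 0.183 and 0.235), though IFIH1 did without FOXA1 siRNA replicate 2 (0.50, limma adjusted p = 0.0163, within a range of 0.0163 to 0.645). DHX58, the regulator LGP2, had 13 and 21 reads and was not tested. Of the ADP-ribosylation genes on chromosome 3, DTX3L, a ubiquitin ligase that pairs with PARP9, was at 547, 504 and 533 against 594, 546 and 721. Its rise passed narrowly although the groups overlapped narrowly (0.22 ± 0.09, limma adjusted p = 0.0328). It was lost under 6 of 16 alternatives, equal library totals (0.12, adjusted p = 0.231) and leaving out FOXA1 siRNA replicate 3 (0.11, adjusted p = 0.263) or control siRNA replicate 2 (0.118) or 3 (0.0624) among them, within a range of 0.00496 to 0.263. PARP9 and PARP14 did not pass (-0.03 and 0.09). PARP14 passed as higher without FOXA1 siRNA replicate 2 (0.30, limma adjusted p = 0.0106, within a range of 0.0106 to 0.982).

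Among 10 tested other induced genes, LGALS3BP, SAMD9 and ISG20 fell and none rose, beside 25% and 26.8% of all tested genes. ISG20, an exonuclease, had 135 reads in controls and 86 after knockdown (-0.66 ± 0.25, limma adjusted p = 0.0278), a call lost under 5 of 15 alternatives (adjusted p of 0.011 to 0.145), leaving out control siRNA replicate 1 (0.0702) or 3 (0.102) or FOXA1 siRNA replicate 2 (0.145) among them. IFI6, a mitochondrial and endoplasmic reticulum protein, was at 460, 450 and 423 against 399, 214 and 333. As for OAS1, the groups did not overlap but the knockdown libraries were spread (-0.54 ± 0.25, limma adjusted p = 0.14). IFI6 passed under 4 of 16 alternatives (limma adjusted p of 2.79e-05 to 0.28 over them), the lowest without a filter on low values. The others were the replicate block (0.0185) and leaving out FOXA1 siRNA replicate 1 (0.00196) or 2 (0.017). It also passed as lower in the authors' deposited values (Wald test, adjusted p = 0.00615). Many classical interferon-induced genes were barely expressed in either group. Reads over the 3 libraries were 28 and 45 for RSAD2 (viperin), 30 and 25 for IFI44L, 33 and 33 for IFI27, 56 and 41 for XAF1, and 3 and 7 for CMPK2. IFI44 and IFI35 were higher, at means of 56.9 and 87.3 in controls, and did not pass. IFI35 passed as lower under 3 of 16 alternatives (adjusted p of 0.0336 to 0.362 over them).

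The members were low together in one knockdown library, by a count added after the data were seen. FOXA1 siRNA replicate 2 held the lowest of the 3 knockdown values for 37 of the 50 tested members (74%), against 30.9% of all tested genes. It held the lowest of all 6 values for 29 members, and for 15.9% of all tested genes. Among the controls, replicate 2 held the lowest value for 24 members (48%), against 34.2% of all tested genes. The median deviation of the members from their control mean, on the scale of log2(normalized count + 1), was -0.13 in FOXA1 siRNA replicate 1, -0.45 in replicate 2 and -0.08 in replicate 3, and lay between -0.03 and 0.04 in the controls. Over all tested genes the same median was between 0.00 and 0.01 in the knockdown libraries. FOXA1 siRNA replicate 2 was also the deepest library, with 25732569 recovered reads, and its FOXA1 count of 192 was like the 189 of replicate 3. The part of depth in the pattern was not tested. STAT2, IRF9, TAPBP, HLA-B, BST2, LGALS3BP, ISG15, USP18, HERC6, IFIT2 and SAMD9 still fell without this library, and TAP2, TRIM25 and DTX3L still rose.

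**Figure D4:**
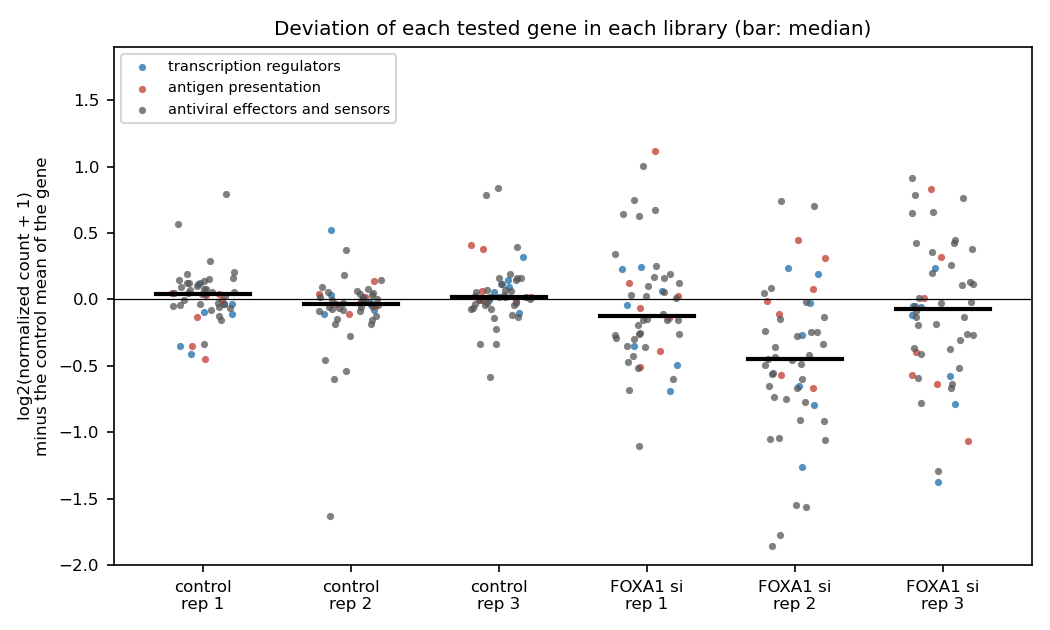
Deviation of each of the 50 tested members from its mean in the 3 controls, as log2(normalized count + 1) (y axis), in each of the 6 libraries (x axis), with points coloured by role and bars at the median. The median is -0.45 in FOXA1 siRNA replicate 2 and -0.13 and -0.08 in the other 2 knockdown libraries.

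Upstream of the members, interferon receptor and kinase genes changed unevenly. Of 13 tested genes of that list, 6 were lower and 2 higher, beside 25% and 26.8% of all tested genes. No read of IFNA1, IFNA2, IFNA5, IFNK, IFNW1 or IFNG was found among 114573293 reads in the 6 libraries, which allows up to 3 reads for each (counting error only). IFNB1 had 2 reads in all. IFNE, an epithelial type I interferon and the single ligand tested, had only 52 reads in controls and 22 after knockdown. It fell (-1.34 ± 0.43, limma adjusted p = 0.0108), but did not pass in the authors' deposited values (Wald test, adjusted p = 0.0755). The kinase gene JAK1 rose from 2838, 2848 and 2977 to 3740, 3631 and 3877 (0.38 ± 0.05). JAK2, which serves the interferon gamma receptor, fell from 843, 743 and 751 to 437, 363 and 431 (-0.93 ± 0.08). TYK2 fell slightly, from 1438, 1515 and 1529 to 1328, 1415 and 1257 (-0.17 ± 0.06, limma adjusted p = 0.0195). TYK2 lost its call under 4 of 16 alternatives, without control siRNA replicate 2 (adjusted p = 0.0706) or 3 (0.0838) or FOXA1 siRNA replicate 3 (0.0663) among them, within a range of 5.56e-04 to 0.0933. The receptor chain IFNAR1 was at 1446, 1418 and 1425 against 1359, 1427 and 1458 and IFNAR2 at 274, 276 and 290 against 242, 234 and 253, and neither passed. IFNGR1, a chain of the interferon gamma receptor, rose from 1415, 1322 and 1406 to 1622, 1490 and 1725 (0.22 ± 0.06), but not under equal library totals (0.12, limma adjusted p = 0.086, within a range of 6.35e-04 to 0.086). SOCS1, an inhibitor of JAK kinases and itself induced by interferon, fell from 70.4, 68.6 and 76.4 to 38.6, 37.2 and 24.9 (-1.10 ± 0.21, limma adjusted p = 8.99e-05).

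In the list of nucleic acid sensing, 7 of 15 tested genes fell and 2 rose, beside 25% and 26.8% of all tested genes. STING1, the adaptor of cytosolic DNA sensing, fell from 985, 1036 and 1004 to 624, 590 and 511 (-0.81 ± 0.07, limma adjusted p = 2.81e-10), while CGAS, the DNA sensor that signals to it, rose from 204, 268 and 234 to 267, 308 and 333 (0.36 ± 0.11, limma adjusted p = 0.00636). The rise of CGAS was lost without control siRNA replicate 1 (adjusted p = 0.0592, within a range of 0.00169 to 0.0691). ZNFX1, an RNA helicase-like sensor, rose from 1774, 1816 and 1905 to 2368, 2204 and 2383 (0.34 ± 0.05). DDX58, which encodes RIG-I, fell from 251, 237 and 283 to 202, 143 and 228 (-0.45 ± 0.14, limma adjusted p = 0.0119), but not without FOXA1 siRNA replicate 2 (-0.26, adjusted p = 0.0728) or control siRNA replicate 3 (adjusted p = 0.0537), within a range of 5.69e-04 to 0.0954. The adaptor gene MAVS was at 5789, 5875 and 5814 against 5726, 5451 and 5642 and EIF2AK2, the kinase PKR, at 1417, 1486 and 1470 against 1437, 1173 and 1438, and neither passed.

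Other interferon-stimulated genes fell in 11 of 31 tested cases and rose in 6, beside 25% and 26.8% of all tested genes. Their median log2 fold change was -0.02. TNFSF10, the death ligand TRAIL, fell from 737, 607 and 712 to 288, 225 and 244 (-1.44 ± 0.09, limma adjusted p = 2.72e-12) and SLFN5 fell from 783, 711 and 795 to 444, 377 and 473 (-0.83 ± 0.08). NMI rose from 65.6, 71.6 and 77.4 to 103, 75.9 and 116 (0.43 ± 0.17, limma adjusted p = 0.0366) and PARP12 from 107, 132 and 124 to 167, 144 and 157 (0.36 ± 0.13, limma adjusted p = 0.0216). Both rises were lost under equal library totals (adjusted p = 0.108 and 0.0956) and without control siRNA replicate 1 (0.115 and 0.111) or FOXA1 siRNA replicate 1 (0.103 and 0.0882). NMI also lost its call without control siRNA replicate 2 (0.0667) or FOXA1 siRNA replicate 3 (0.19), and their p ranged from 0.00686 to 0.19 and from 0.00275 to 0.111. In the further antigen presentation list, 4 of 18 tested genes fell and 5 rose, near the 25% and 26.8% of all tested genes. RFX5, a subunit of the complex that binds the X box of MHC promoters, fell from 1260, 1119 and 1106 to 294, 323 and 311, without overlap (-1.91 ± 0.07, limma adjusted p = 1.09e-17). ERAP1, which trims peptides for class I, fell from 1654, 1686 and 1663 to 1048, 1119 and 1128 (-0.60 ± 0.06, limma adjusted p = 7.15e-10). The proteasome activator gene PSME2 rose from 2023, 2125 and 2021 to 2360, 2387 and 2551 (0.24 ± 0.05). The chaperone gene CANX rose from 17392, 17095 and 17516 to 22358, 21600 and 23839 (0.38 ± 0.04), though by only 0.15 with quantile normalization. The inducible immunoproteasome genes PSMB8 (12.4, 5.04 and 16.7 against 6.43, 6.07 and 4.74) and PSMB9 (5.71, 2.02 and 8.37 against 5.36, 4.55 and 3.56) were too low to test.

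**Figure D5:**
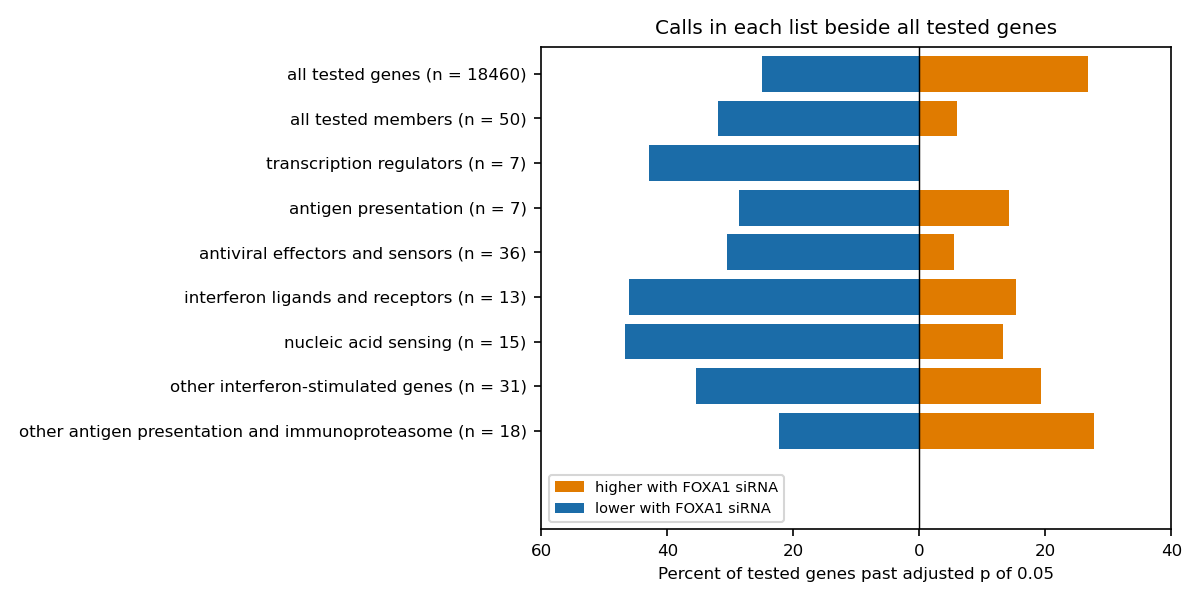
Percent of tested genes past an adjusted p of 0.05 (x axis), lower with FOXA1 siRNA to the left and higher to the right, for all tested genes, the members, their 3 role groups and 4 further lists (y axis, number tested in brackets). Over all tested genes 25% were lower and 26.8% higher, against 32% and 6% of the members.

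Some members share sequence or position with other genes, which can shift their counts. In GENCODE release 29, exons of another gene covered more than 10% of the exon bases of 10 members. These included 48.4% of IRF9, by the same-strand AL136295.5, 32.3% of TAP2, by the same-strand AL669918.1, 32.5% of IFITM1, by IFITM2, and 38.3% of XAF1, by PRAL on the opposite strand. More than 10% of the 50-base words of their transcripts recurred in another gene for 6 members, such as 23.4% of USP18, mostly in USP41, and 34.1% of IFITM2. The counting rule and the use of strand are not given in the sources used here, so values of these genes are uncertain to that extent.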

How the data were processed

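The deposited table gave, per the file headers, 1 normalized signal value (gene counts scaled by library size factors) per gene and sample, with the authors' log2 fold change, its test score, p-value and adjusted p-value. HISAT2, DESeq2, GRCh38 and GRCm38 were named, without roles, per the submitters' processing notes. Of 61862 lines, 3 were malformed and left out. In all libraries 100% of values were whole multiples of 1 step to within 0.01 read, which gave back the reads. The test was limma 3.58.1 (R 4.3.3) with trend and robust options on log2(normalized count + 1) for the 18460 genes with a mean of at least 10, with Benjamini-Hochberg adjustment and a threshold of 0.05. Fold changes are on that scale, which understates changes of low genes. Alternatives included edgeR 4.0.16 and DESeq2 1.42.0 on the recovered reads. The scripts were tested on simulated data. Members and lists were chosen with earlier results of these data known. Values in all 6 samples were given for every regulator and antigen presentation member, for up to 8 rises and 8 falls among the rest with a mean of at least 50, and from each other list for up to 2 of each, besides 12 fixed genes; some genes under this rule are not reported here. Samples enter by their labels, 3 per group, and IFI6, OAS1 and others outside this rule were chosen after their values were seen. No batch was named in the labels used here. Counter and strand setting are not given in the sources used here. Promoters are RefSeq's (GRCh38.p14); gene positions and overlaps are from GENCODE release 29.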

Additional observations from a re-analysis of the deposited data

How the results depend on the processing

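Across 16 alternatives, 13 of the 19 called members kept their direction and call, and none of the 19 changed sign. IRF7, IFIT3, IFITM1, PLSCR1, DTX3L and ISG20 lost their call under at least 1. Of 31 members that did not pass, 15 passed under at least 1 alternative. As lower these were SP110, HLA-E, IFIT1, IFIT5, OAS1, OASL, IFITM2, UBE2L6, IFI6 and IFI35. As higher they were IRF1, IFITM3, IFIH1, PARP14 and SAMD9L. The number of members that fell ranged from 12 (limma without trend and robust options) to 22 (equal library totals), and the number that rose from 2 to 6. Leaving out 1 library gave 13 to 21 that fell and 2 to 6 that rose, the latter without FOXA1 siRNA replicate 2. Without a filter on low values, limma adjusted p went from 3.32e-18 to 4.5e-243 for FOXA1 and from 0.00356 to 4.79e-29 for IRF9. Their fold changes stayed the same, and for IFIT3 p went up, from 0.0328 to 0.0507. The lowest p given for IRF7, OAS1 and IFI6 came from that fit, and HLA-E passed only there (5.44e-04). Such p are thus weak support. EdgeR called 21 members, 19 of them shared with limma, and DESeq2 16, all shared. The authors' deposited values pass 18 members, 16 of them called here. They also pass OAS1 and IFI6 as lower (Wald test, adjusted p = 0.00744 and 0.00615). Called here but not passing there were IFIT3, DTX3L and ISG20 (Wald test, adjusted p = 0.117, 0.0857 and 0.127). The sign of genes that did not pass turned with equal library totals for SP100 (-0.01), HLA-C (-0.03), B2M (-0.02), MX1 (-0.08), ADAR (-0.03) and PARP14 (-0.01), with quantile normalization for HLA-C (-0.10), ADAR (-0.09) and IFI44 (0.07), and with edgeR for IFI27 (-0.02). The cause was not tested. Leaving out 1 library turned the sign of NLRC5, B2M, TAP1, OAS3, MX1, PARP9, PARP14, IFI27, IFI44, XAF1 and IFNAR1, whose values then ranged from -0.09 to 0.38, -0.04 to 0.15, -0.52 to 0.17, -0.27 to 0.08, -0.16 to 0.30, -0.11 to 0.08, -0.07 to 0.30, -0.54 to 0.79, -0.22 to 0.08, -0.97 to 0.11 and -0.04 to 0.01. Over all tested genes, replicate numbers showed no pairing of the samples. Deviations of same-numbered libraries correlated at -0.01, 0.01 and -0.01, and not every library correlated best with its own number. Pairing among the members alone was not tested. With the replicate block 18 members fell and 3 rose. The limma adjusted p then went from 0.113 to 4.22e-04 for OAS1 and from 0.00356 to 2e-06 for IRF9. For IRF7 it went the other way, from 0.0153 to 0.0543. Equal library totals moved the median over all tested genes to -0.093. The depth limits genes with under 50 reads a group, such as HERC5 and RSAD2.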
